A study of Rattus norvegicus with 82 samples.

Results

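Gamma tubulin and the proteins that hold it in a ring were followed in rat heart through 4 genes, Tubg1, Tubgcp2, Tubgcp3 and Tubgcp4, out of 14217 genes with a probe set on the array. The genes were found by symbol in the array's probe annotation, and where a gene had more than 1 probe set the brightest, by its mean over the 82 arrays, was used. All 4 passed the filter on dim probe sets, which left 11319 genes to test. Tubg1 was chosen by its measured level, as the leading gene, with its low values 6 h after vinblastine 0.5 mg/kg already known. For that reason its values in that contrast, and in the 2 others that use the same dosed hearts, are given as a description with no test. The saline hearts of that contrast also enter every other comparison that uses saline at 6 h. Those comparisons were tested, and for Tubg1 they are not wholly free of the choice.

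The animals were male Wistar rats of the Crl:Wi(Han) strain, and each array held total RNA from the heart of 1 animal. They received intravenous vinblastine (0.5 or 3 mg/kg), vincristine (0.1 or 1 mg/kg), colchicine (0.2 or 2 mg/kg) or saline, the vehicle that all the groups share. Hearts were taken 6 or 24 h later, which gave 14 groups of 6 animals, except for the vincristine 0.1 mg/kg groups with 5 at each time. The number of arrays limits the precision of each value.

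Microtubules are built from pairs of alpha and beta tubulin, and gamma tubulin is the template from which they start. It acts within the gamma tubulin ring complex, in which GCP proteins, made from the Tubgcp genes, each carry a gamma tubulin molecule. GCP2 and GCP3, made from Tubgcp2 and Tubgcp3, form the core unit of the complex, and GCP4, made from Tubgcp4, helps to close the ring. In dividing cells the complex sits at the centrosome, whereas in mature heart muscle cells microtubules start largely from the nuclear envelope and the Golgi. Vinblastine and vincristine are vinca alkaloids and colchicine is another plant alkaloid. All bind the alpha and beta tubulin pair and keep it from assembling into microtubules. Cells lower their alpha and beta tubulin messages when free pairs of these tubulins build up, a loop known as tubulin autoregulation.

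In the GRCr8 assembly of RefSeq, which was used for positions and names only, Tubg1 lies at chr10:86553143-86559733. The gene for the close relative of gamma tubulin, Tubg2, starts 31876 bases beyond its end on the same chromosome. The array annotation gave no probe set for Tubg2, and probe sequences were not used here, so whether the Tubg1 probe set also reads Tubg2 RNA was not tested. Tubgcp2 lies at chr1:204220725-204247460, Tubgcp3 at chr16:83553950-83614626 and Tubgcp4 at chr3:128594052-128628789.

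Promoter sequences are shown for Tubg1, for Tuba4a and Tubb4b, the alpha tubulin and the beta tubulin gene whose levels ran closest to those of Tubg1 in these hearts, and for Tubgcp3, which did not pass the test in any comparison. Each is the run of 250 bases before the RefSeq start site, 5′ to 3′ on the strand of the gene. They lie at chr10:86552893-86553142 on the forward strand, chr9:84162585-84162834 and chr3:28438456-28438705 on the reverse strand and chr16:83553735-83553984 on the forward strand of GRCr8. Capitals mark CCAAT, or its reverse complement ATTGG.
Tubg1: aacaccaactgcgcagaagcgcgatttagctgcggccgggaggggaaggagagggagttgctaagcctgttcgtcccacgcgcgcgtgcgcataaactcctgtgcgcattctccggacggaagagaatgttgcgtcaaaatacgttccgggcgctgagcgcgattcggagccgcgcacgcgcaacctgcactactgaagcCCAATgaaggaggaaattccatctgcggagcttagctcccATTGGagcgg
Tuba4a: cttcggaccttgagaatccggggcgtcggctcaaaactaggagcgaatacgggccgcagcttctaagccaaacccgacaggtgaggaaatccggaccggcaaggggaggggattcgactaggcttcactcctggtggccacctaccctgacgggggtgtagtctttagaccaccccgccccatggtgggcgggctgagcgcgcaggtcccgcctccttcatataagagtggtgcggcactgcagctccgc
Tubb4b: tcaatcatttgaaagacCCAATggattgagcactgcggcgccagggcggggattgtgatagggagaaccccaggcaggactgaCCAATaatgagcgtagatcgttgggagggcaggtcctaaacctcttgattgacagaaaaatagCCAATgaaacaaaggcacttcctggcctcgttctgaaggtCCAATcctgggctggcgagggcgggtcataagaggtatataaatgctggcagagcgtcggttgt
Tubgcp3: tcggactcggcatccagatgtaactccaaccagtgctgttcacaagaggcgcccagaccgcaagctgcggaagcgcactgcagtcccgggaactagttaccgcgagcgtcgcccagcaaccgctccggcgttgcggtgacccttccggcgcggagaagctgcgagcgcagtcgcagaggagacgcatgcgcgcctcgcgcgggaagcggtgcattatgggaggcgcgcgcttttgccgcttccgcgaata

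Tubg1 held 2 such matches, which began 50 and 10 bases before the start site, the first in the forward and the second in the reverse direction. The Tubb4b window held 4 matches, while those of Tuba4a and Tubgcp3 held 0. The window of Tuba8, an alpha tubulin gene that also ran close to Tubg1 and is not shown, held 0 matches to any of the motifs searched. Of 33469 promoter windows of this length, 34% held CCAAT on either strand. TATAA, present in 24% of the windows, began 30 bases before the start of Tuba4a and 27 before that of Tubb4b, and was in neither the Tubg1 nor the Tubgcp3 window. GGGCGG, in 30.5% of all windows, occurred 2 times each in Tuba4a and Tubb4b, and TTTGAA, in 16.2%, occurred 1 time in Tubb4b. The windows of Tubg1 and Tubgcp3 held 0 matches to either. Of the windows searched but not shown, that of Tubgcp2 held 1 CCAAT and 3 TATAA matches. That of Tubgcp4 held 1 GGGCGG match, and that of Tubb5 held 1 CCAAT and 3 GGGCGG matches. The start site that the promoter table gives for Tubgcp3 lies inside the span listed for the gene. The share of G and C was 59.6% in the Tubg1 window, against a median of 51.2% over all windows. These matches describe the letters of the windows.

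Values are the intensities that the authors normalized and deposited, on a linear scale, and changes are differences in log2(intensity + 16) with the standard error of the model. The deposited intensities ran from 9.755 to 39497.2, and the median intensity of an array lay between 57.61 and 63.31. Array profiles were compared over the genes tested other than the 4 followed here. On 10 arrays the profile lay nearer the median of another group than that of its own, by a ratio of distances above 1.3. Among the 6 h hearts, replicate 6 of the lower and replicate 1 of the higher vinblastine dose stood apart in this way, as did replicate 3 of the higher vincristine dose. Colchicine added replicates 1 and 6 of its lower dose and replicate 4 of its higher dose. Among the 24 h hearts it was replicate 5 of the lower dose of each vinca compound, replicate 6 of the lower colchicine dose and replicate 1 of the higher. A further 34 arrays lay nearer another group by a smaller ratio and were not set apart. All leading values keep every array as labelled, and results that rest on the 10 set apart are also given without them. The 9 cardiomyocyte markers with a probe set all passed the filter, and their summed intensity lay between 145000 and 195000 on the 82 arrays.

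Among the 4 genes, Tubg1 was the one that varied. Its SD over the 82 arrays was 0.6 on the log2 scale, higher than that of 97.9% of the genes tested, and 66.2% of its variance lay between the groups. These values are a description with no test, since the hearts whose low values chose Tubg1 are among the 82 arrays. The SDs of Tubgcp2, Tubgcp3 and Tubgcp4 were 0.12, 0.12 and 0.11, which placed them at the 14.3, 12.2 and 7.61 percentiles, and 25.3%, 16.1% and 19.5% of their variance lay between groups.

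Tubg1 intensity in saline hearts was 424 ± 44.3 (SD, n = 6) at 6 h and 446 ± 67.3 (n = 6) at 24 h. The 6 h animals ran from 364 to 484 with a median of 428, and those at 24 h from 323 to 514 with a median of 454. Saline hearts at 24 h and at 6 h overlapped, and the difference was 0.06 ± 0.21 in log2 (limma adjusted p = 0.911), in a comparison where 0.00883% of the genes tested passed. The dosed groups of a time are each set against the same 6 saline animals, so their changes are not independent of each other.

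**Figure D1:**
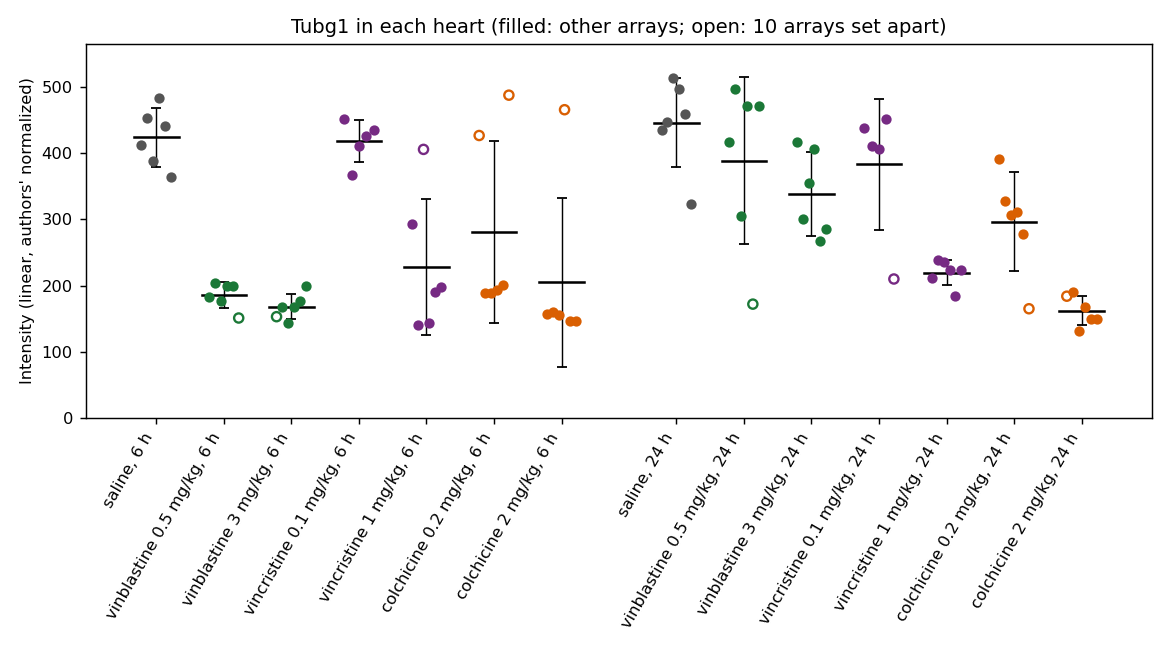
Tubg1 intensity on a linear scale for each animal (points) in the 14 groups, with the group mean (bar) and SD (whiskers). Open points are the 10 arrays set apart, whose profile lay nearer another group by a ratio of distances above 1.3. The hearts given vinblastine at 6 h lie between 144 and 204, below all the saline hearts of that time, while at 24 h the group with the lowest mean is colchicine 2 mg/kg, between 132 and 190.

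At 6 h most hearts of every dosed group except vincristine 0.1 mg/kg had Tubg1 levels below all the saline hearts. In the vinblastine 0.5 mg/kg hearts it ran from 151 to 204 with a median of 191, so that all 6 animals lay below the lowest saline animal. The mean was 186 ± 19.9 (SD, n = 6), 2.18-fold lower than in saline (log2 change -1.13 ± 0.21, a description with no test). In that contrast 5 of the 11319 genes had a lower log2 change. Of all genes tested, 0.0353% passed the threshold of an adjusted p under 0.05 in either direction and 0.0265% as lower, and for 0.141% the groups did not overlap with the treated group lower. In heart tissue, lower RNA of this kind cannot be told apart from fewer cells of a type that makes it.

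After vinblastine 3 mg/kg the 6 hearts ran from 144 to 199 with a median of 168, and again none reached the saline range. Tubg1 fell 2.39-fold (log2 -1.26 ± 0.21, 95% interval -1.68 to -0.84, limma adjusted p = 1.66e-05, 6 of 6 animals lower). It was the 1 gene of the 4 to fall, in a comparison where 7.67% of the genes tested fell and 23.3% passed the threshold in either direction. Groups did not overlap, with the treated group lower, for 2.29% of the genes. In log2 change 13 genes fell further.

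Vincristine 1 mg/kg gave a wider spread, from 141 to 406 with a median of 194 and a mean of 229 ± 103 (SD, n = 6). The highest animal, replicate 3, lay within the saline range and is 1 of the arrays set apart. The next highest value was 293. Tubg1 fell 1.91-fold (log2 -0.94 ± 0.21, 95% interval -1.36 to -0.51, limma adjusted p = 0.0116, 6 of 6 animals below the saline mean). Again 1 gene of the 4 fell, where 1.25% of the genes tested fell and 3.3% passed in either direction. The change was -1.11 ± 0.11 without the arrays set apart (adjusted p = 1.53e-11), and without replicate 4 of this group it was -0.83, which missed the threshold (adjusted p = 0.0661). Over the alternative settings the adjusted p ran from 1.53e-11 to 0.0321.

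After colchicine 2 mg/kg, 5 of the 6 hearts lay between 147 and 160, and the sixth, replicate 4, at 466. The group mean was 205 ± 128 (SD, n = 6) and the median 156. Tubg1 fell 2.18-fold (log2 -1.12 ± 0.21, 95% interval -1.54 to -0.70, limma adjusted p = 0.000259, 5 of 6 animals lower). The other 3 genes did not pass, while 4.37% of the genes tested fell and 9.27% passed in either direction. Without the arrays set apart, of which replicate 4 is one, the change was -1.37 (adjusted p = 1.56e-15).

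The colchicine 0.2 mg/kg hearts at 6 h split in the same manner, with a median of 197, a lowest value of 189 and the 2 arrays set apart at 427 and 488. The other 4 had a mean of 193 ± 5.56 (SD, n = 4). With all 6 arrays the mean was 281 ± 138, and the change of -0.68 ± 0.21 (95% interval -1.1 to -0.25) did not pass in limma (adjusted p = 0.221, 4 of 6 animals lower). None of the other 3 genes passed either, where 0.274% of the genes tested did. Without the arrays set apart the change was -1.07 ± 0.12 and passed (adjusted p = 9.05e-10). It also passed without replicate 6 alone (-0.85, adjusted p = 0.0383), and the adjusted p ran from 9.05e-10 to 0.343 over the alternative settings. Leaving out arrays that stand apart from their group lowers the spread by construction.

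Vincristine 0.1 mg/kg left Tubg1 within the saline range at 6 h, from 368 to 452 with a median of 427 and a mean of 419 ± 32.1 (SD, n = 5). The change was -0.02 ± 0.22, and its 95% interval of -0.46 to 0.43 allows up to 1.37-fold lower and 1.35-fold higher. In this comparison 0 of the genes tested passed in limma and 441 had an unadjusted p under 0.05.

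At 24 h Tubg1 stayed low after the higher doses of vincristine and colchicine. Colchicine 2 mg/kg gave the lowest group mean over all arrays, although its 6 h group had a lower median and, without the arrays set apart, a lower mean. The 24 h hearts ran from 132 to 190 with a median of 159 and a mean of 162 ± 22.3 (SD, n = 6), all below the saline range. Tubg1 fell 2.59-fold (log2 -1.37 ± 0.21, 95% interval -1.79 to -0.95, limma adjusted p = 1.62e-07, 6 of 6 animals lower). Of the 4 genes 2 fell and 1 rose, where 25.3% of the genes tested fell, 19.3% rose and 44.6% passed in either direction. Groups did not overlap, with the treated group lower, for 4.48% of the genes, and 107 genes fell further than Tubg1.

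Vincristine 1 mg/kg at 24 h held Tubg1 between 185 and 238, with a median of 224 and a mean of 220 ± 19.2 (SD, n = 6). No animal reached the lowest saline value of 323. Tubg1 fell 1.95-fold (log2 -0.96 ± 0.21, 95% interval -1.39 to -0.54, limma adjusted p = 0.00027, 6 of 6 animals lower). Here 2 of the 4 genes fell, against 18.4% of the genes tested that fell and 30.4% that passed in either direction. Groups did not overlap in this direction for 11.8% of the genes, and 121 genes fell further.

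After vinblastine the 24 h levels lay closer to saline. At 3 mg/kg the hearts ran from 267 to 417 with a median of 328 and a mean of 339 ± 64.1 (SD, n = 6), overlapping saline although all 6 lay below its mean. The change was -0.39 ± 0.21 (95% interval -0.81 to 0.04) and did not pass in limma (adjusted p = 0.281). None of the 4 genes passed there, where 9.58% of the genes tested did. Without the arrays set apart, none of which is in this group or its saline group, the estimate was the same and the smaller spread of the fit let it pass (-0.39 ± 0.11, adjusted p = 0.00784). Over the alternative settings the adjusted p ran from 0.00784 to 0.328.

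At 0.5 mg/kg vinblastine, 24 h hearts ran from 172 to 497 with a median of 444 and a mean of 389 ± 127 (SD, n = 6). The lowest, replicate 5, is set apart, and the next lowest was at 305. The change was -0.26 ± 0.21 with a limma adjusted p of 1, and -0.05 without the arrays set apart. In this comparison 0 of the genes tested passed, and 227 had an unadjusted p under 0.05.

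The lower doses of the other compounds did not pass for Tubg1 at 24 h. In the colchicine 0.2 mg/kg hearts it ran from 165 to 392 with a median of 309 and a mean of 297 ± 74.9 (SD, n = 6). All 6 lay below the saline mean, and the change was -0.59 ± 0.21 (95% interval -1.01 to -0.17, unadjusted p = 0.00686, limma adjusted p = 1). It ranked high, since 8 genes fell further, but 0 of the genes tested passed and 289 had an unadjusted p under 0.05. Vincristine 0.1 mg/kg hearts ran from 210 to 452 with a median of 411 and a mean of 384 ± 98.8 (SD, n = 5). Replicate 5, at 210 and set apart, stood far below the next value of 406. The change was -0.24 ± 0.22 (adjusted p = 0.999), and 0 of the genes tested passed, with 316 under an unadjusted p of 0.05.

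Ordered by mean, the 14 groups ran from saline at 24 h (446) and saline at 6 h (424) through vincristine 0.1 mg/kg at 6 h (419), vinblastine 0.5 mg/kg at 24 h (389) and vincristine 0.1 mg/kg at 24 h (384). Below these came vinblastine 3 mg/kg at 24 h (339), colchicine 0.2 mg/kg at 24 h (297) and at 6 h (281) and vincristine 1 mg/kg at 6 h (229) and at 24 h (220). The lowest were colchicine 2 mg/kg at 6 h (205), vinblastine 0.5 mg/kg (186) and 3 mg/kg (168) at 6 h and colchicine 2 mg/kg at 24 h (162). No 2 neighbours in this order differed by more than the larger of their SDs. The 10 arrays set apart enter these means, and on 8 of them Tubg1 lay outside the range of the other arrays of the group.

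Of the 9 cardiomyocyte markers tested, 0 passed in either direction in the 6 comparisons at 6 h. Of all genes tested, 23.3% passed there with vinblastine 3 mg/kg, 9.27% with colchicine 2 mg/kg and at most 3.3% in the others. The summed intensity of the markers at 6 h ran from 145000 to 180000 in saline hearts and from 158000 to 174000 after colchicine 2 mg/kg. At 24 h 3 of them (Ckm, Myh6, Mb) fell after vincristine 1 mg/kg and 4 (Myh6, Ckm, Ryr2, Myl3) after colchicine 2 mg/kg, where 18.4% and 25.3% of all genes tested fell, while Nppa, the atrial natriuretic peptide, rose in both. Among 7 endothelial markers 1, Emcn, fell at 6 h after vinblastine 3 mg/kg, vincristine 1 mg/kg and colchicine 2 mg/kg. The shares of all genes that fell there were 7.67%, 1.25% and 4.37%. Kdr rose at 6 h after vinblastine 3 mg/kg, where 15.7% of all genes rose. The summed endothelial intensity of the vinblastine 3 mg/kg hearts at 6 h, from 5670 to 7020, overlapped that of saline, from 5110 to 6740.

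Markers of neutrophils and macrophages were higher in several of the same groups, and those of red blood cells lower. Summed over the 2 neutrophil markers tested, S100a8 and S100a9, the intensity at 6 h ran from 62 to 123 in saline hearts. It ran from 825 to 1510 after vinblastine 3 mg/kg, from 65.1 to 776 after vincristine 1 mg/kg and from 60.9 to 1060 after colchicine 2 mg/kg. After vinblastine 0.5 mg/kg the sum ran from 79.7 to 1450 with a median of 144, and overlapped saline. Neither marker passed there (limma adjusted p = 0.917 for each). The mean of S100a9 in that group was 291 with all arrays and 122 without replicate 6, which is set apart. Of the other neutrophil markers listed, Mmp8, Mmp9, Cxcr2 and Csf3r were below the filter. Of 6 macrophage markers at 6 h, Cd14 rose and Csf1r fell after vinblastine 3 mg/kg, vincristine 1 mg/kg and colchicine 2 mg/kg. Of all genes tested, 15.7%, 2.05% and 4.89% rose there and 7.67%, 1.25% and 4.37% fell. With vinblastine 3 mg/kg the changes were 1.61 ± 0.24 for Cd14 (limma adjusted p = 2.46e-06) and -0.58 ± 0.14 for Csf1r (adjusted p = 0.00133). The summed intensity of the 6 macrophage markers overlapped saline at 6 h, from 1630 to 2890 against 2130 to 3440 after vinblastine 3 mg/kg. At 24 h it ran from 1870 to 2400 in saline against 3100 to 4210 after vincristine 1 mg/kg. The sum over 3 red blood cell markers at 24 h ran from 12100 to 14100 in saline, from 7820 to 11300 after vinblastine 3 mg/kg and from 6360 to 10600 after vincristine 1 mg/kg. Of 3 lymphocyte markers tested, 0 passed in any dose comparison, where up to 44.6% of all genes did. Summed over 7 fibroblast markers, the intensity at 24 h ran from 28500 to 35800 in saline and from 22100 to 28800 after vincristine 1 mg/kg. After colchicine 2 mg/kg it ran from 19100 to 27900, below all the saline hearts. Over 6 smooth muscle and pericyte markers the sum ran from 2970 to 4260 in saline, and both doses overlapped it (2640 to 4170 and 2780 to 4170). Of the latter list, Rgs5 fell after these 2 doses by 0.75 and 1.14 on the log2 scale, where 18.4% and 25.3% of all genes fell. Cnn1 rose by 0.31 after colchicine 2 mg/kg at 24 h, where 19.3% of all genes rose. The part of any of these cells in the level of Tubg1 was not tested.

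Group means were lower at the higher dose for all 3 compounds at both times, and the difference passed for vincristine at both times and for colchicine at 24 h. Vincristine 1 mg/kg was lower in Tubg1 than 0.1 mg/kg by -0.92 ± 0.22 at 6 h (limma adjusted p = 0.0136, 6 of 6 animals lower) and by -0.72 ± 0.22 at 24 h (adjusted p = 0.0121, 6 of 6). The 6 h difference missed the threshold without replicate 2 of the 1 mg/kg group (-0.81, adjusted p = 0.0541) or without its replicate 4 (-0.82, adjusted p = 0.0663). Of all genes tested, 1.2% were lower and 2.81% passed in either direction at 6 h, and 11.6% and 23.9% at 24 h. Colchicine 2 mg/kg was lower than 0.2 mg/kg by -0.78 ± 0.21 at 24 h (adjusted p = 0.00183, 6 of 6), where 22.7% of the genes were lower and 41.5% passed. At 6 h, where 9.25% of the genes passed, that difference was -0.45 ± 0.21 (adjusted p = 0.207) with all arrays, and it passed without replicate 4 of the 2 mg/kg group (-0.70, adjusted p = 0.0101).

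For vinblastine, Tubg1 at 3 mg/kg minus 0.5 mg/kg was -0.13 ± 0.21 at 24 h (95% interval -0.55 to 0.29, limma adjusted p = 0.844), which did not pass. The interval allows up to 1.47-fold lower and 1.22-fold higher at the higher dose. At 6 h the difference was also -0.13 ± 0.21, a description with no test, since the lower dose there is the group that chose Tubg1. Of all genes tested, 8.53% passed between these doses at 6 h and 5.49% at 24 h. At 24 h the difference was -0.34 without the arrays set apart and passed there (adjusted p = 0.0431). Vinblastine and vincristine, which differ by a methyl against a formyl group on the vindoline part of the molecule, were given at different doses and are set side by side here without a comparison.

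The changes at 24 h were also set against those at 6 h. For vinblastine 3 mg/kg the difference was 0.87 ± 0.30 (95% interval 0.27 to 1.47, limma adjusted p = 0.0736), which did not pass, where 4.44% of all genes tested did. At 0.5 mg/kg it was 0.87 ± 0.30, a description with no test, since it rests on the 6 h hearts whose low values chose Tubg1 and a return toward saline is favoured by that choice. The difference at 3 mg/kg passed without the arrays set apart (0.85 ± 0.16, adjusted p = 0.000109), and its adjusted p ran from 0.000109 to 0.143 over the alternative settings. The difference was -0.03 ± 0.30 for vincristine 1 mg/kg (95% interval -0.62 to 0.57, adjusted p = 0.973) and -0.25 ± 0.30 for colchicine 2 mg/kg (-0.85 to 0.35, adjusted p = 0.634), in comparisons where 12.3% and 18.9% of the genes passed.

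**Figure D2:**
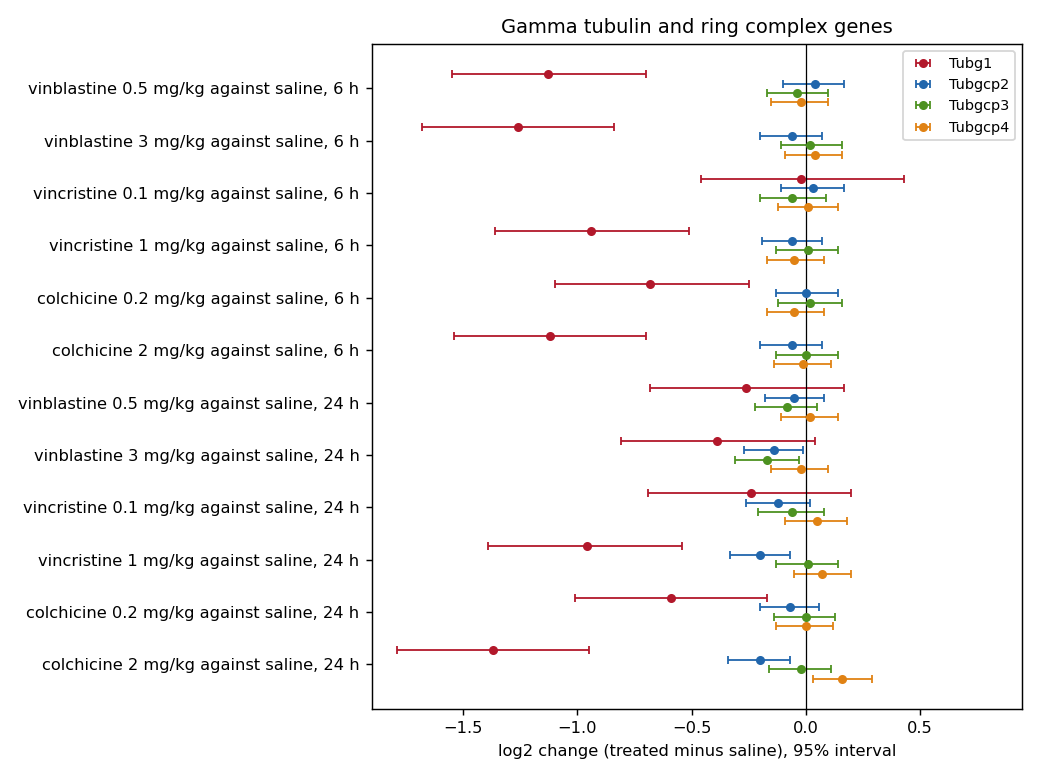
log2 change against saline of the same time (points) with its 95% interval (bars) for Tubg1, Tubgcp2, Tubgcp3 and Tubgcp4 in the 12 dose comparisons. Tubg1 lies between -1.37 and -0.02, while the other 3 genes lie between -0.20 and 0.16 throughout.

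The genes of the ring had small changes. Tubgcp2 intensity was 264 ± 19.1 (SD, n = 6) in saline at 6 h, from 246 to 300 with a median of 260, and its change in the 6 comparisons of that time lay between -0.06 and 0.04, each with a standard error of 0.07. None passed. The bound nearest to the fall of Tubg1 was -0.20, the lower end of the 95% interval for vinblastine 3 mg/kg and for colchicine 2 mg/kg.

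At 24 h Tubgcp2 was 280 ± 24.1 (SD, n = 6) in saline, from 247 to 320 with a median of 276. After vincristine 1 mg/kg it was 241 ± 26.3, from 215 to 280 with a median of 236, and after colchicine 2 mg/kg 240 ± 13.2, from 226 to 261 with a median of 239. Both groups overlapped saline. Tubgcp2 fell by 0.20 ± 0.07 on the log2 scale in each (limma adjusted p = 0.0138 and 5 of 6 animals lower with vincristine, 0.00855 and 6 of 6 with colchicine), which is 1.15-fold. With vincristine the fall no longer passed without saline replicate 3 (-0.17, adjusted p = 0.0635) or without vincristine replicate 5 (-0.17, adjusted p = 0.052). The vinblastine 3 mg/kg hearts, at 253 ± 23.8, had a change of -0.14 ± 0.07 that did not pass (adjusted p = 0.194).

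Tubgcp3 passed in none of the 25 comparisons with all arrays weighted alike. Its intensity was 55.2 ± 5.54 (SD, n = 6) in saline at 6 h and 56.4 ± 4.15 at 24 h, and on 78 of the 82 arrays it was above the percentile used as a filter, so it lies near the dim end of what was tested. The lowest group was vinblastine 3 mg/kg at 24 h, at 48.6 ± 7.0 with animals from 40.1 to 57.4 and a median of 50.1, against 48.6 to 60.1 in saline. The change there was -0.17 ± 0.07 (95% interval -0.31 to -0.03, limma adjusted p = 0.109). With array weights it passed (-0.22, adjusted p = 0.00672), as it did without replicate 1 of this group (-0.21, adjusted p = 0.0492). In the other 11 dose comparisons the change lay between -0.08 and 0.02.

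Tubgcp4 was the member that was higher in one group. In saline hearts at 24 h its intensity was 159 ± 9.34 (SD, n = 6), from 145 to 167 with a median of 162, and after colchicine 2 mg/kg 180 ± 20.5, from 144 to 205 with a median of 182. The lowest colchicine animal, replicate 1, lay below all the saline animals and is 1 of the arrays set apart. Tubgcp4 rose by 0.16 ± 0.06 (limma adjusted p = 0.033, 5 of 6 animals higher), and by 0.16 ± 0.06 over colchicine 0.2 mg/kg (adjusted p = 0.0331), where 18.8% of the genes tested were higher. In the other 11 dose comparisons the change lay between -0.05 and 0.07 and did not pass. Without the arrays set apart it was 0.22 ± 0.06 (adjusted p = 0.0027). The rise was lost when only the groups compared were fitted (adjusted p = 0.112), in 6 of the 12 refits that left out 1 animal, and on the mean of both probe sets of the gene (0.07, adjusted p = 0.114). The second probe set, which was dim on every array (15.5 to 21.8), gave -0.02 (adjusted p = 0.723).

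**Figure D3:**
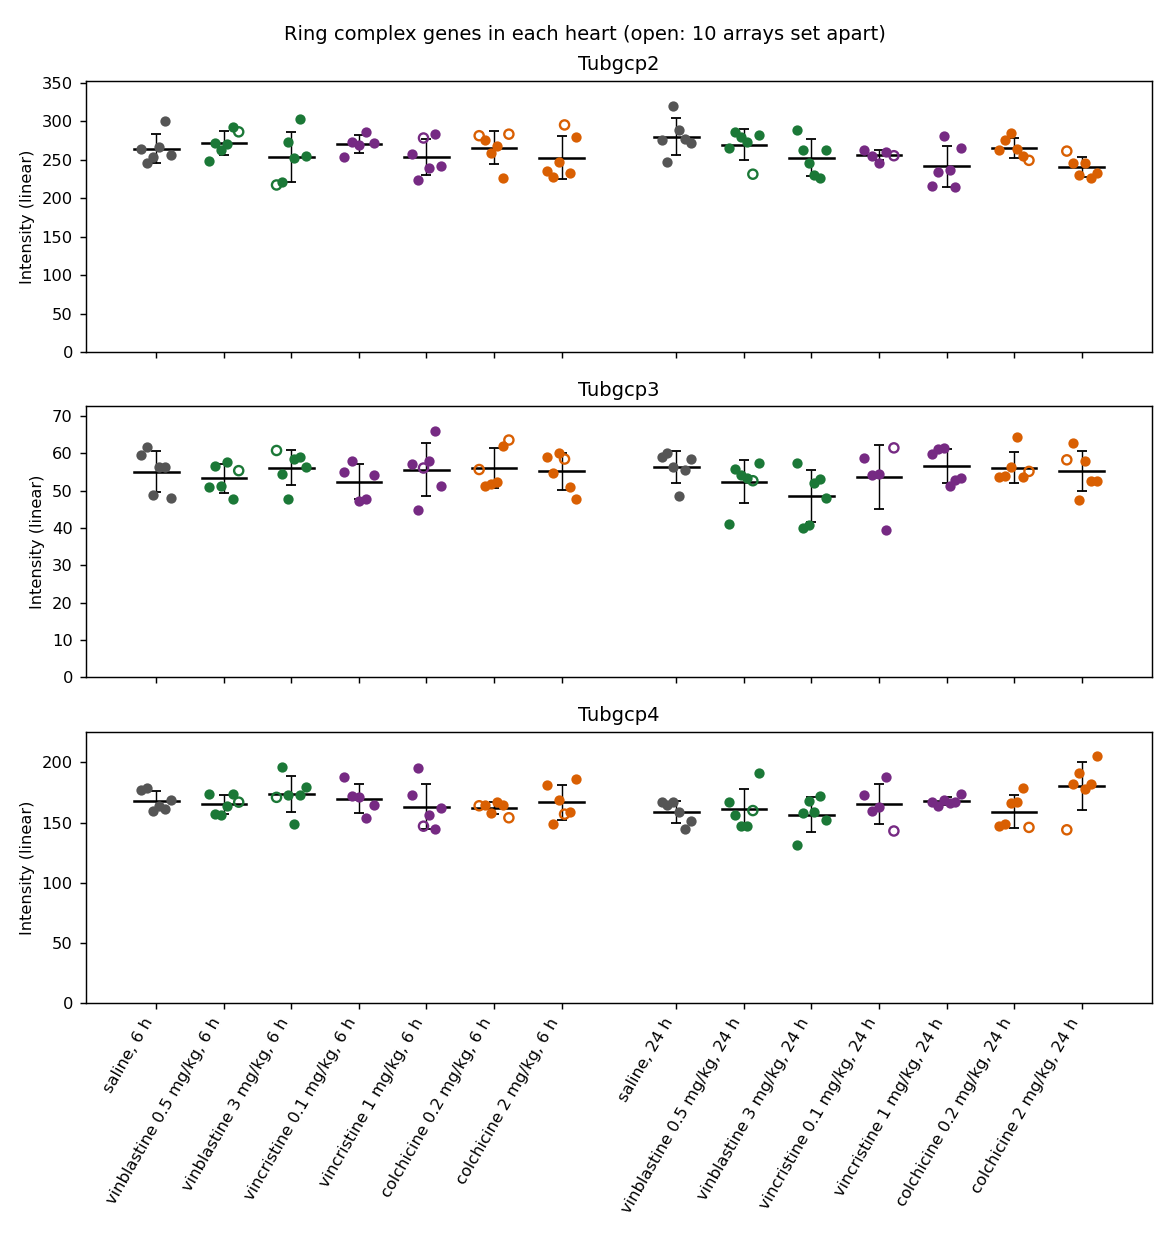
Intensity on a linear scale of Tubgcp2, Tubgcp3 and Tubgcp4 for each animal (points) in the 14 groups, with the group mean (bar) and SD (whiskers); open points are the 10 arrays set apart, and each axis starts at 0. The dosed groups of each gene overlap saline of the same time, and group means run from 240 to 280 for Tubgcp2, from 48.6 to 56.7 for Tubgcp3 and from 157 to 180 for Tubgcp4.

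The gap between Tubg1 and the ring genes was also taken within each array, as log2(intensity + 16) of Tubg1 minus the mean of the other 3. It is a description, since Tubg1 was chosen for its low level. The gap closed by 1.26 ± 0.07 after vinblastine 3 mg/kg, by 0.90 ± 0.23 after vincristine 1 mg/kg and by 1.1 ± 0.24 after colchicine 2 mg/kg at 6 h. At 24 h it closed by 0.28 ± 0.14, 0.92 ± 0.10 and 1.35 ± 0.11 for the same doses. For vinblastine at 24 h the change of Tubg1 itself was -0.39, larger than that of the gap. Over the 82 arrays Tubg1 correlated with Tubgcp2 at r = 0.49 (0.46 within groups), with Tubgcp3 at -0.02 and with Tubgcp4 at -0.22, values that share the arrays and their normalization.

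Of the other genes that belong to or bind the ring, 6 of 8 listed were tested, and Tubg2 and Tubgcp5 had no probe set with their symbol. Tubgcp6, the largest GCP protein, fell by 0.28 ± 0.07 after vinblastine 3 mg/kg at 6 h (limma adjusted p = 0.00137) and by 0.28 ± 0.07 after colchicine 2 mg/kg at 24 h (adjusted p = 0.000456). Mzt2b, a small protein that rides on the complex, rose in the same comparisons, by 0.40 ± 0.12 (adjusted p = 0.00872) and 0.36 ± 0.12 (adjusted p = 0.0083). Mzt1, a small protein needed to recruit the complex, fell by 0.23 ± 0.09 with colchicine 2 mg/kg at 24 h (adjusted p = 0.0221). Thus 1 fell and 1 rose at 6 h with vinblastine 3 mg/kg, and 2 fell and 1 rose at 24 h with colchicine 2 mg/kg, where 23.3% and 44.6% of all genes passed. In these comparisons 1 and 4 of the 6 passed without the arrays set apart. The medians over the 6 genes were 0.11 and -0.12, against 0.01 and 0 over all genes tested.

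Lgals3bp, a secreted galectin binding protein that has also been detected with the complex, rose at 24 h. It ran from 426 to 959 with a median of 577 after vinblastine 3 mg/kg, against 247 to 404 with a median of 307 in saline, with no overlap (log2 0.89 ± 0.18, limma adjusted p = 0.000239, 6 of 6 animals higher). After vincristine 1 mg/kg it ran from 332 to 619 and overlapped saline (0.56 ± 0.18, adjusted p = 0.0104). Of 6 macrophage markers tested, 4 rose with vinblastine 3 mg/kg and 5 with vincristine 1 mg/kg, where 5.29% and 12% of all genes rose. With colchicine 2 mg/kg at 24 h, where Lgals3bp did not pass, 4 of them rose and 1 fell, against 19.3% and 25.3% of all genes. Their part in the level of Lgals3bp was not tested. Nedd1, the adaptor that carries the complex to centrosomes and spindles, and Nme7, a kinase bound to the complex, did not pass in any dose comparison.

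Genes for the proteins that anchor the complex passed in both directions at 24 h. Of 13 listed, 9 were tested. Of these, 4 fell and 1 rose with vincristine 1 mg/kg, 6 fell and 1 rose with colchicine 2 mg/kg, and 2 fell and 1 rose with vinblastine 3 mg/kg. The medians of -0.30, -0.50 and -0.09 stand against -0.01, 0 and -0.01 over all genes, and the shares of genes that fell were 18.4%, 25.3% and 4.28%. At 6 h 1 gene, Syne2, fell with vinblastine 3 mg/kg (-0.50 ± 0.13, limma adjusted p = 0.00269) and with colchicine 2 mg/kg (-0.46 ± 0.13, adjusted p = 0.012). In the 6 comparisons with lower doses, where at most 0.274% of all genes passed, 0 of the 9 did.

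Akap6, which ties the microtubule organizing proteins to the nuclear envelope in muscle, was the anchor with the largest falls. In saline hearts at 24 h it ran from 591 to 794 with a median of 735. It ran from 94.7 to 477 after vinblastine 3 mg/kg, from 289 to 565 after vincristine 1 mg/kg and from 302 to 602 after colchicine 2 mg/kg. The vinblastine and vincristine groups did not overlap saline, and the colchicine group did. The changes were -1.09 ± 0.22 (limma adjusted p = 0.000413), -0.85 ± 0.22 (adjusted p = 0.00222) and -0.93 ± 0.22 (adjusted p = 4e-04).

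Syne1, a giant protein of the outer nuclear membrane, fell with colchicine 2 mg/kg at 24 h by 0.72 ± 0.10 on the log2 scale (limma adjusted p = 1.1e-08), with hearts from 318 to 564 against 642 to 808 in saline. Pcm1, the scaffold of centriolar satellites, fell by 0.62 ± 0.09 there (adjusted p = 2.65e-08) and by 0.41 ± 0.09 with vincristine 1 mg/kg (adjusted p = 0.000221). Cdk5rap2, which binds the ring complex directly and activates it, fell with vincristine 1 mg/kg by 0.42 ± 0.08 (limma adjusted p = 2.42e-05). With vinblastine 3 mg/kg it fell by 0.28 ± 0.08 (adjusted p = 0.0122). With colchicine 2 mg/kg at 24 h its hearts ran from 108 to 193, below the 196 to 231 of saline.

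Pcnt, the pericentriolar scaffold pericentrin, rose in the same 3 groups, by 0.44 ± 0.11 with vinblastine 3 mg/kg (limma adjusted p = 0.00444), by 0.37 ± 0.11 with vincristine 1 mg/kg (adjusted p = 0.00609) and by 0.46 ± 0.11 with colchicine 2 mg/kg (adjusted p = 0.000333). Its hearts ran from 313 to 453, 302 to 424 and 305 to 562, each above the 251 to 301 of saline. Pcnt was the 1 gene among the 9 anchors that rose in these comparisons. Its values with vincristine and colchicine were chosen for the text after they were seen.

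Factors that help microtubules to start or to branch changed in fewer cases. Of 11 listed genes, 7 were tested. Ckap5, a polymerase that works with the ring complex, fell with vincristine 1 mg/kg at 24 h (-0.29 ± 0.10, limma adjusted p = 0.0268) and with colchicine 2 mg/kg (-0.41 ± 0.10, adjusted p = 0.000738). Haus4, a subunit of augmin, which brings the complex to existing microtubules, fell in the same 2 comparisons (-0.25 ± 0.09, adjusted p = 0.0311, and -0.33 ± 0.09, adjusted p = 0.00238). It also fell with vinblastine 3 mg/kg at 6 h (-0.28 ± 0.09, adjusted p = 0.0236), a call lost without the arrays set apart, when 0 of the 7 passed there. With colchicine 2 mg/kg at 24 h 4 of the 7 fell and 0 rose, where 25.3% of all genes fell.

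**Figure D4:**
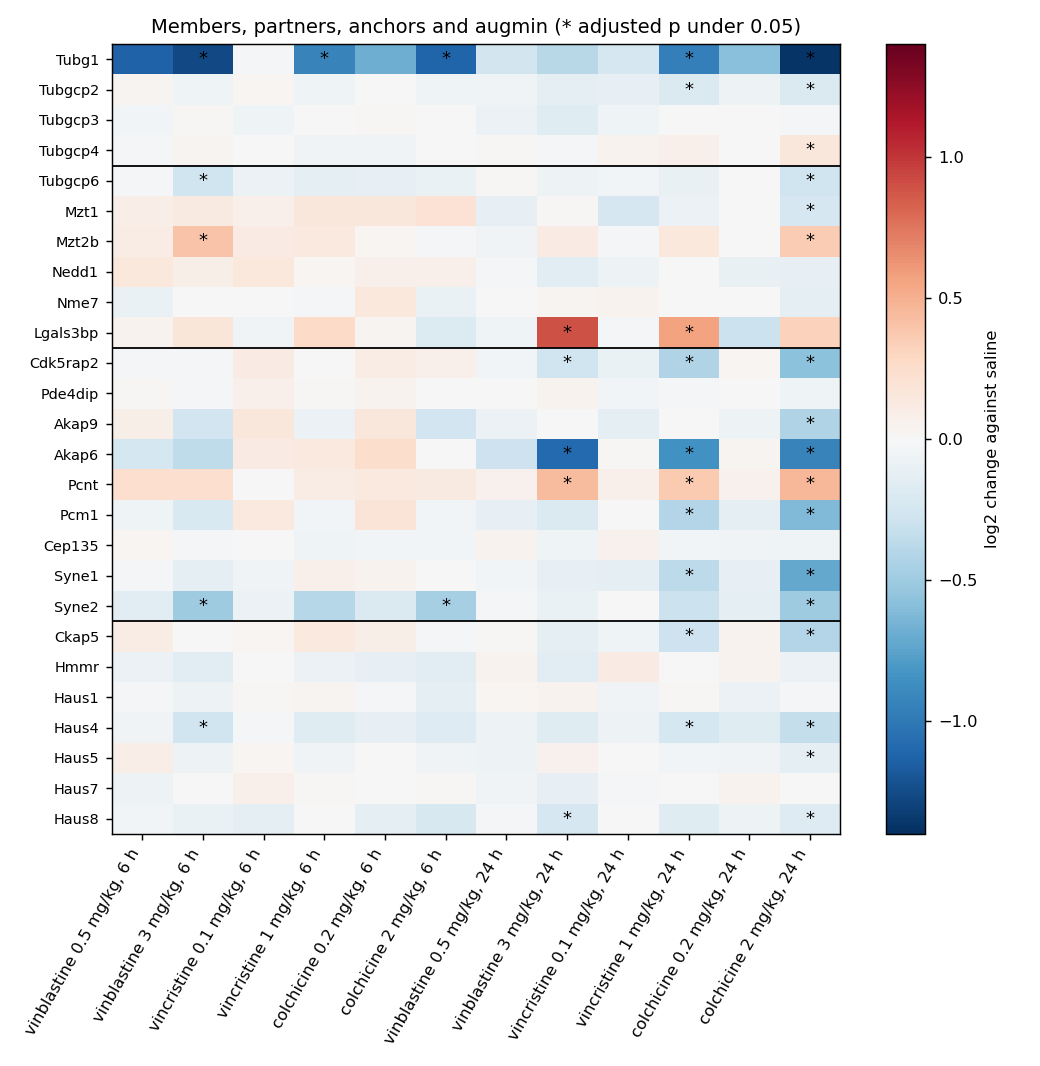
log2 change against saline of the same time (colour scale from -1.4 to 1.4) for the 4 genes, other ring complex genes, anchors and nucleation factors (rows, separated by lines) in the 12 dose comparisons (columns). Asterisks mark an adjusted p under 0.05, and Tubg1 with vinblastine 0.5 mg/kg at 6 h carries none because it was not tested. Tubg1 reaches -1.26 at 6 h, where Syne2 at -0.50 is the lowest of the other genes that passed, and at 24 h Akap6 (-1.09) and Lgals3bp (0.89) stand out beside it.

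The genes whose pattern over the 82 arrays was most like that of Tubg1 were other tubulins. Pearson's r was 0.973 for Tuba4a, an alpha tubulin of muscle, 0.965 for Tuba8, another alpha tubulin, 0.922 for Tubb4b, a beta tubulin made in most tissues, and 0.869 for Tubb5, a beta tubulin of many tissues. Over the 14 group means the values were 0.991, 0.975, 0.932 and 0.855, and within groups 0.939, 0.947, 0.908 and 0.898. Scaper (0.870), Klhdc7a (0.858), Ccnq (0.841), Emp2 (0.828), Prox1 (0.827) and Emcn (0.826) completed the 10. All were computed on log2(intensity + 16) from the same arrays and normalization, and carry no p. For the other members the highest were Dpp4 at 0.683 for Tubgcp2, Rnf44 at 0.526 for Tubgcp3 and Slc16a13 at 0.566 for Tubgcp4.

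Of the tubulins with which Tubg1 ran, Tuba4a and Tuba8 had larger changes than Tubg1 after the higher doses. Tubb5 did not in every case. With vincristine 1 mg/kg at 24 h its mean was 1070 against 1310 in saline, where Tubg1 was 220 against 446. Tuba4a ran from 4730 to 6260 in saline at 6 h and from 502 to 4690 with a median of 574 after colchicine 2 mg/kg, a log2 change of -2.61 ± 0.49 where that of Tubg1 was -1.12 ± 0.21. With vincristine 1 mg/kg at 24 h Tuba4a fell by 2.53 ± 0.49 (limma adjusted p = 3.7e-05) and Tuba8 fell by 2.26 ± 0.41 (adjusted p = 1.5e-05), and with colchicine 2 mg/kg the changes were -3.09 ± 0.49 (adjusted p = 2.51e-07) and -2.75 ± 0.41 (adjusted p = 8.1e-08). Of 9 alpha and beta tubulins tested, 5 fell with colchicine 2 mg/kg at each time, where 4.37% of all genes fell at 6 h and 25.3% at 24 h. With the lower colchicine dose at 6 h, where 0.274% of all genes passed, 0 passed, and 6 passed without the arrays set apart. With vinblastine 0.5 mg/kg at 6 h, where 0.0353% of all genes passed, 2 passed, and 5 without those arrays.

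The change from 6 to 24 h after vinblastine 3 mg/kg is given for the tubulins that ran with Tubg1 and for Tubb2a, another beta tubulin. Tubb2a fell by 1.54 ± 0.34 at 6 h (limma adjusted p = 0.000631) and rose by 1.08 ± 0.34 at 24 h (adjusted p = 0.0319), from 641 to 1160 in saline to 1560 to 2480, with no overlap. The change at 24 h minus that at 6 h passed for Tubb2a (2.62 ± 0.49, adjusted p = 0.00106), Tubb4b (2.35 ± 0.59, adjusted p = 0.0133) and Tubb5 (1.62 ± 0.38, adjusted p = 0.00655). For Tuba4a it was 1.95 ± 0.69 (adjusted p = 0.0831) and for Tuba8 1.59 ± 0.58 (adjusted p = 0.0948), which did not pass, as the 0.87 ± 0.30 of Tubg1 did not. Whether the genes differ from each other in this was not tested.

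**Figure D5:**
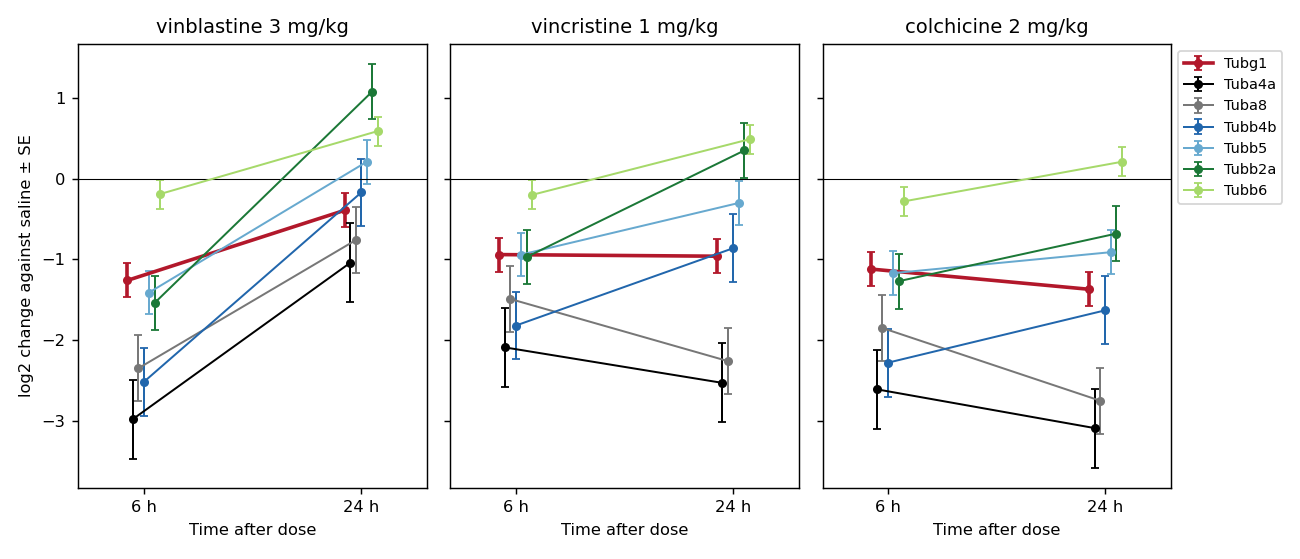
log2 change against saline at 6 and 24 h (points, with standard errors as bars) for Tubg1 and 6 alpha and beta tubulins after the higher dose of each compound. Tubg1 goes from -1.26 to -0.39 with vinblastine, from -0.94 to -0.96 with vincristine and from -1.12 to -1.37 with colchicine, and Tubb2a crosses 0 with vinblastine and with vincristine, where neither of its changes passed.

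Genes of the machinery that degrades tubulin messages were measured beside the tubulins. Scaper, which links the tubulin recognition factor to the deadenylase that shortens messages, had hearts from 142 to 163 after vinblastine 3 mg/kg at 6 h, against 222 to 300 in saline, with no overlap (log2 -0.69 ± 0.11, limma adjusted p = 1.05e-05, 6 of 6 animals lower). It fell also with vincristine 1 mg/kg (-0.39 ± 0.11, adjusted p = 0.0371) and colchicine 2 mg/kg (-0.45 ± 0.11, adjusted p = 0.00446) at 6 h, and at 24 h by 0.47 ± 0.11 and 0.60 ± 0.11 (adjusted p = 0.000822 and 8.26e-06). Ttc5, the factor that reads the start of a new alpha or beta tubulin chain on the ribosome, fell with vinblastine 3 mg/kg at 6 h (-0.25 ± 0.07, limma adjusted p = 0.00889). At 24 h it fell with vincristine 1 mg/kg (-0.39 ± 0.07, adjusted p = 3.66e-05) and colchicine 2 mg/kg (-0.52 ± 0.07, adjusted p = 3.11e-08). Of 6 genes tested, 2 fell with vinblastine 3 mg/kg at 6 h, where 7.67% of all genes fell. With colchicine 2 mg/kg at 24 h 3 fell and 1 rose, where 25.3% and 19.3% of all genes did. Their part in the level of Tubg1 was not tested.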

How the data were processed

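The authors deposited one intensity per probe set and array, on a linear scale, from Affymetrix arrays hybridised with RNA from 82 rat hearts. Per the labels' protocols, RNA was extracted with a Qiagen kit and labelled with the Affymetrix 3' IVT express kit. The method that normalized and summarised the deposited intensities is not given in the sources used here, and the pseudocount below understates changes of dim genes.

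Of 31099 probe sets, 57 were controls, 20826 had 1 gene symbol, 436 had several and 9780 were not in the annotation table. Each gene was represented by its brightest probe set on average. Values were turned into log2(intensity + 16), and genes went into the test if, on at least 5 arrays, they exceeded the 40th percentile of that array. limma 3.58.1 in R 4.3.3 fitted the 14 group means over all 82 arrays, with 68 residual degrees of freedom and no covariate, and gave 25 comparisons. Their p-values were adjusted by Benjamini-Hochberg over all genes tested, with a threshold of 0.05, and tests are two-sided. The labels give rats per group, so the spread is that between animals. Alternatives left out arrays and changed pseudocount, filter, normalization, probe set, weights, samples and block, and the closing section gives their effect. Fits were tested on simulated data with independent normal values and a known change in a single group. Those data held no arrays that stand apart from their group, so they do not bear on results that rest on such arrays. Figures used matplotlib 3.10.9.

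The 4 genes and all gene lists were chosen with earlier results of these data known. The text names the 4 genes in every comparison and, of each list, up to 3 members past the threshold in a comparison by the size of the change. It also names the 10 genes most correlated with Tubg1 and the 3 most correlated with each other member, of which the first is printed. Promoters and positions came from RefSeq GRCr8, whose letters were searched on both strands, with overlapping matches counted separately.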

Additional observations from a re-analysis of the deposited data

Results flagged for a closer look

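In 5 of the 56 sets of values, 4 genes in 14 groups, 1 animal stood far from the others by Dixon's 95% criterion, which chance meets in about 1 in 20. Tubg1 was at 210 in vincristine 0.1 mg/kg replicate 5 at 24 h, where the nearest other animal had 406. It was at 466 in colchicine 2 mg/kg replicate 4 at 6 h, where the nearest had 160. Both arrays are among the 10 set apart. Tubgcp2 was at 300 in saline replicate 5 at 6 h, with the nearest at 266. Tubgcp3 was at 41.2 in vinblastine 0.5 mg/kg replicate 1 at 24 h, with the nearest at 52.7. It was at 64.3 in colchicine 0.2 mg/kg replicate 4 at 24 h, with the nearest at 56.3. These last 3 arrays are not among the 10.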

How the results depend on the processing

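Of 132 results for Tubg1 against saline under another setting, 128 kept their direction and their side of the threshold and 4 newly passed in limma. The 128 include 11 for vinblastine 0.5 mg/kg at 6 h, which chose Tubg1 and lends these counts no support. With array weights these were colchicine 0.2 mg/kg at 6 h (-0.83, adjusted p = 0.00475) and vinblastine 3 mg/kg at 24 h (-0.49, adjusted p = 0.0279). Without the arrays set apart, an alternative chosen after seeing the data, they were the same pair (-1.07, adjusted p = 9.05e-10, and -0.39, adjusted p = 0.00784).

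Leaving out 1 animal at a time moved the 6 h changes of Tubg1 between -1.17 and -1.07 for vinblastine 0.5 mg/kg, -1.3 and -1.22 for 3 mg/kg, -0.06 and 0.03 for vincristine 0.1 mg/kg, -1.11 and -0.83 for 1 mg/kg, -0.85 and -0.59 for colchicine 0.2 mg/kg, and -1.37 and -1.06 for 2 mg/kg. In the same order the 24 h ranges were -0.34 to -0.05, -0.47 to -0.33, -0.33 to -0.05, -1.05 to -0.92, -0.68 to -0.44 and -1.46 to -1.32. The difference in change from 6 to 24 h with vinblastine 3 mg/kg passed under quantile normalization (0.92, adjusted p = 0.0447), with only the groups compared (0.87, adjusted p = 0.00175) and with array weights (0.77, adjusted p = 0.0379).

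For the Tubgcp genes 814 of 825 such results stayed the same. Tubgcp4 with colchicine 2 mg/kg at 24 h reversed on its dim second probe set (-0.02). Of 924 counts of list members past the threshold, 850 stayed within 1.5 times the value reported and 74 did not. The cause of these changes was not tested.

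Correlations of same-numbered animals ran from -0.38 to 0.45. At most 4 of 5 pairs were over 0.1, with vincristine 0.1 mg/kg at 6 h, and in no comparison were all, so the numbers were not taken to pair the samples. With the replicate number as a block all 100 results of the 4 genes kept their call, and the changes of Tubg1 ran from -1.37 to -0.03. The 100 include the contrasts in which Tubg1 is given as a description with no test.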

Other observations

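Genes of mitosis, in which the ring complex works at spindle poles, were also measured at 24 h. Of 10 tested, 4 fell with vinblastine 3 mg/kg, 3 with vincristine 1 mg/kg and 2 with colchicine 2 mg/kg, and 0 rose, against shares of 4.28%, 18.4% and 25.3% of all genes tested that fell. Cdk1, the kinase that starts mitosis, fell with vinblastine 3 mg/kg by 0.60 ± 0.15 on the log2 scale (limma adjusted p = 0.00633). Prc1, which bundles the microtubules of the spindle midzone, fell there by 0.56 (adjusted p = 0.00656), and Top2a, which untangles chromosomes, by 0.30 (adjusted p = 0.0127). Ccna2, Bub1, Bub1b, Aurka, Aurkb and Cenpf, also listed, were below the filter. In saline at 24 h the mean intensity was 87.1 for Cdk1, 132 for Prc1 and 51 for Top2a, while the median intensity of an array lay between 57.61 and 63.31. The cells that the messages of the tested genes come from were not tested.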
